A study of Rattus norvegicus with 4 samples.

Results

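Gene expression in rat gracilis muscle after 14 days of reperfusion was set against that after 7 days. The injured muscles came from male Sprague-Dawley rats, an outbred stock, and were taken 14 or 7 days into reperfusion after ischemia that lasted 4 h. Each was hybridised with sham-operated gracilis muscle of the same strain and sex on 1 two-colour Agilent array, the injured muscle in red (Cy5) and the sham muscle in green (Cy3). The comparison uses 2 of the 4 arrays of the study, and the other arrays hold days 1 and 3. There was 1 array per day, with no dye swap, so no difference below has a replicate or a p-value and the number of arrays limits the precision. Whether the sham RNA of both arrays came from the same animals is not given in the sources used here.

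Each gene has a pair of measures. The ratio difference is the log2 ratio of injured to sham muscle on day 14 minus that on day 7. The injured difference compares the red channels, as normalized log2 levels on day 14 minus those on day 7, without taking a ratio to sham. The sham signal still entered the normalization of these levels. Both measures also hold the same red signal, so they are not independent of each other. A gene was counted when both measures differed at least 2-fold (1 on the log2 scale) in the same direction. This sets a size only, and nothing was tested. Of 41012 gene probes, 25120 were well above background in at least 1 channel of both arrays. They stood for 21796 of 35615 genes or unnamed transcripts, of which 11434 carried a gene symbol.

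As background, skeletal muscle killed by ischemia is cleared by phagocytes and rebuilt from satellite cells, which divide, fuse into new fibres and first make embryonic contractile proteins and the fetal acetylcholine receptor. As fibres mature and regain nerve contact they switch to adult fast or slow myosins and to the enzymes of the matching energy metabolism. The gracilis of the rat is mostly a fast muscle. In bulk tissue a lower level of a gene can come from fewer cells of a type or from less RNA per cell, and these cannot be told apart here.

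By the ratio difference, 398 genes were at least 2-fold higher on day 14 (1.83%) and 273 were lower (1.25%). By both measures, 288 genes were higher on day 14 (1.32%) and 215 were lower (0.986%), and at a 4-fold size the counts were 25 and 28. These counts depend on the processing. With the scanner software's own log ratios in place of the normexp and loess ratios, 2246 genes were higher and 2130 lower by the ratio difference, and 469 were higher and 356 lower by both measures. With the normexp and loess ratios, 3.08% of the 21796 genes differed by the ratio difference and 2.31% by both measures, and these shares were larger with the software's ratios. The gene lists below are short, so at 2.31% a list with no member past both measures lies near the share over all genes. The median over all genes was -0.02 for the ratio difference and -0.09 for the injured difference. The earlier intervals held more such genes. Day 7 against day 3 gave 923 higher and 419 lower genes by both measures, and day 3 against day 1 gave 618 higher and 328 lower.

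The measures did not always coincide. By the red channels alone, 1053 genes were higher on day 14 (4.83%) and 541 were lower (2.48%). The sham channels themselves differed at least 2-fold upward for 646 genes and downward for 27, and 504 genes were higher on day 14 in both the injured and the sham muscle. The red-channel count alone therefore holds many genes whose sham level was also higher on the day 14 array than on the day 7 array. The day 14 array was scanned in another session than the arrays of days 1, 3 and 7, so day and scanning session cannot be told apart. Sham muscle was well above background for 46.4% of probes on day 14 and 34.7% on day 7, and injured muscle for 66.6% and 66.0%. For sham muscle the share was 47.3% on day 1 and 41.1% on day 3, so the day 7 array had the lowest. What set the sham levels of the day 14 and day 7 arrays apart was not tested. Among 40 probes printed 10 times, the spots of a probe had a median SD of 0.09 for the ratio difference and 0.33 for the injured difference, which is spot noise and not the spread between animals.

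**Figure D1:**
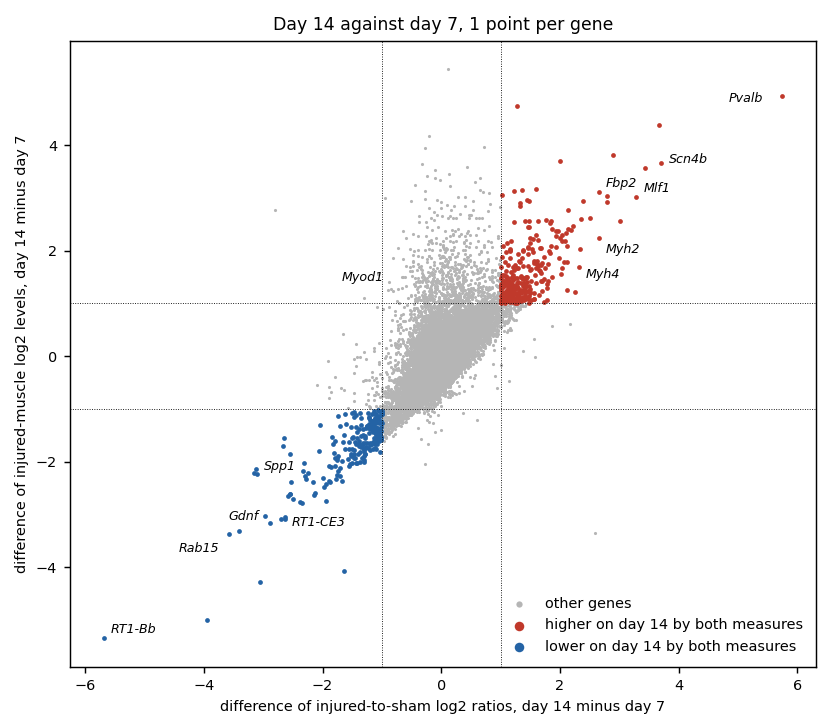
Each point is a gene, with the difference of its injured-to-sham log2 ratios (day 14 minus day 7) on the x axis and the difference of its injured-muscle log2 levels on the y axis, and dotted lines at 2-fold. The 288 red genes were higher and the 215 blue genes lower on day 14 by both measures, and the grey column above the upper line near 0 on the x axis holds genes that were higher in the red channel without a matching ratio difference.

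Several of the genes highest on day 14 are genes of the mature fibre. Pvalb encodes parvalbumin, the calcium buffer of the fastest fibres, and its probe lies at chr7:116114699-116114758 in the rn4 coordinates of the files. Its log2 level was 15.50 in injured muscle on day 14 and 10.58 on day 7, against 13.14 in sham muscle on the day 14 array and 13.96 on the day 7 array. It stood 5.16-fold above sham on day 14 and 10.4-fold below sham on day 7. The ratio difference was 53.7-fold and the injured difference 30.4-fold, the highest ratio difference among named genes.

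Fast myosins followed the same direction. Myh2, the myosin heavy chain of fast oxidative fibres, had a log2 level of 15.05 in injured muscle on day 14 and 12.81 on day 7, against 11.82 and 12.24 in sham muscle on those arrays. Its injured-to-sham ratio was 9.36-fold on day 14 and 1.49-fold on day 7. Myh4, the heavy chain of the fastest fibres, had injured levels of 15.31 on day 14 and 13.62 on day 7, against sham levels of 13.77 and 14.40. On day 14 Myh4 therefore stood 2.90-fold above the sham muscle of its array, and on day 7 it stood 1.72-fold below that of its array. The sham level of Myh4 was higher on the other arrays, 15.60 on day 3 and 15.68 on day 1, which is above the day 14 injured level. No probe was matched to Myh1, so the third adult fast heavy chain is not reported.

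Of 14 measured genes of the fast fibre list, 7 were higher on day 14 by both measures and none was lower, with a median ratio difference of 1.06. The other members that passed were Mybpc2 (fast myosin-binding protein C, ratio difference 2.39), Actn3 (fast alpha-actinin, 1.65), Mylk2 (skeletal myosin light chain kinase, 1.34) and Myoz1 (a fast-fibre protein of the Z disc, 1.21). Actn3 was saturated in injured muscle on day 14, so its red channel was at least 2.25-fold higher. Fast troponins differed less between the days. Tnnt3 (fast troponin T) was 1.65 above sham on the log2 scale on day 14 and 1.1 above on day 7, and Tnnc2 and Tnni2 (fast troponins C and I) had ratio differences of 0.41 and 0.44. The sham level of Tnnt3 was 13.80 on day 14 and 13.78 on day 7, but 15.17 on day 3 and 14.91 on day 1. Sham Actn3 read 14.49, 14.96, 16.01 and 15.84 on days 14, 7, 3 and 1, against a saturated 15.58 in injured muscle on day 14. Sham Mybpc2 varied less, between 11.62 and 12.37.

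Slow fibre genes did not share this course. Of 15 measured members, 2 were higher and 1 was lower on day 14 by both measures, with a median ratio difference of 0.27. As a group they were below sham: the median log2 ratio to sham was -1.23 on day 14 and -1.5 on day 7, and 9 members on day 14 and 10 on day 7 were at least 2-fold below sham, against 1.67% and 1.32% of all genes on those days. Fast fibre genes had medians of 1.37 on day 14 and 0.24 on day 7, and 10 of the 14 stood at least 2-fold above sham on day 14, against 3.41% of all genes. Part of this lay in the sham channel, whose median difference (day 14 minus day 7) was -0.38 for fast fibre genes. It was -0.25 for slow fibre genes and -0.09 over all genes. Myh7, the slow myosin heavy chain, had injured levels of 13.83 on day 14 and 12.60 on day 7, against sham levels of 16.49 (saturated) and 16.59, which left it at least 6.32-fold below sham on day 14. Other slow genes ranged widely. Myl3, the slow ventricular-type light chain, had a ratio difference of 1.87 and was still 4.78-fold below sham on day 14. Ankrd2, a stretch-responsive gene of slow fibres, had a log2 ratio to sham of -3.40 on day 14 and -3.64 on day 7. Csrp3, the muscle LIM protein, was the slow-list gene lower on day 14, with a ratio difference of -1.09.

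Several other genes of the mature fibre stood near the top. Scn4b, an auxiliary subunit of the voltage-gated sodium channel, had injured levels of 11.49 on day 14 and 7.83 on day 7, while sham muscle read 10.98 and 11.03. It was 1.42-fold above sham on day 14 and 9.17-fold below it on day 7. Mlf1 (myeloid leukemia factor 1) was 2.20-fold above sham on day 14 and 4.41-fold below it on day 7. Tuba8, an alpha-tubulin found in muscle, had a ratio difference of 3.02 and remained 1.86-fold below sham on day 14, and its dimmer probe gave 1.07. Asb11, a muscle ubiquitin-ligase adaptor, had a ratio difference of 2.33 and reached 1.13-fold below sham on day 14. All 4 were at least 2-fold below sham on day 7 and within 2-fold of it or above it on day 14. Apobec2, a muscle-enriched member of the cytidine deaminase family, was saturated in injured muscle on day 14 and was at least 2.33-fold higher in the red channel.

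Sarcomere genes outside the fibre-type lists did not reach the size set here. Of 19 members of the sarcomere and coupling list none passed both measures, and the median ratio difference was 0.50. Ttn (titin) had the highest value, 1.1, but its 3 probes ran between -0.37 and 1.1. Ckm (muscle creatine kinase) was saturated in injured muscle on both days, so no fold is given.

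**Figure D2:**
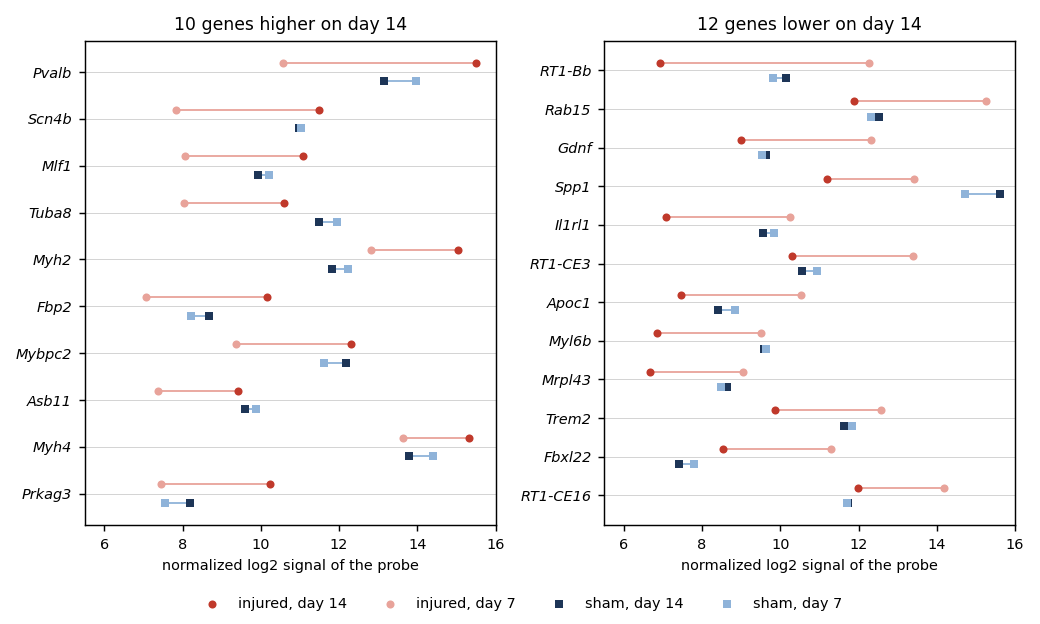
Normalized log2 signals of 10 genes higher (left) and 12 genes lower (right) on day 14, those of the named genes with the widest ratio differences that were measured in all 4 channels, with injured muscle as circles and sham muscle as squares, and day 14 in the darker shade. Several genes lie on opposite sides of sham on the 2 days. Those at least 2-fold from sham on both days are Pvalb, Fbp2 and Mlf1, above it on day 14 and below it on day 7, and RT1-Bb, below it on day 14 and above it on day 7.

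Some energy metabolism genes were higher as well. Of 26 measured genes of glycolysis and glycogen, 7 were higher on day 14 by both measures and none was lower, with a median ratio difference of 0.62, and 24 had a value above 0. Fbp2, the muscle fructose bisphosphatase, had injured levels of 10.16 on day 14 and 7.05 on day 7, against sham levels of 8.66 and 8.21. It stood 2.82-fold above sham on day 14 and 2.23-fold below it on day 7. Pgam2 (muscle phosphoglycerate mutase) and Aldoa (aldolase A) had ratio differences of 1.34 and 1.41, and Pygm (muscle glycogen phosphorylase) of 1.38. Ugp2, which makes the glucose donor for glycogen, had a ratio difference of 1.33 and an injured difference of 2.84, with sham levels of 11.35 on the day 14 array and 9.84 on the day 7 array. Ppp1r1a, an inhibitor of protein phosphatase 1, had a ratio difference of 1.67 but was 4.74-fold below sham on day 14. Prkag3, the AMP-activated kinase subunit of fast fibres, was 4.17-fold above sham on day 14 and level with it on day 7 (log2 ratio -0.08), although its dimmer probe gave a ratio difference of 0.19.

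In the lists of fatty acid use and mitochondrial enzymes fewer genes passed both measures. The fatty acid list nevertheless had a median near that of glycolysis and glycogen (0.62), and 25 of its members had a value above 0. Of 27 genes of fatty acid uptake and oxidation, 2 were higher by both measures, namely Fabp3 (the heart and muscle fatty acid binding protein, ratio difference 1.46, or 2.52 with the software's processed signals) and Hadh (an enzyme of beta-oxidation, 1.06), and the median was 0.58. Of 38 genes of oxidative phosphorylation and 24 of the tricarboxylic acid cycle none passed both measures, with medians of 0.23 and 0.29. Car3, the carbonic anhydrase abundant in slow muscle, had a ratio difference of 2.11 and remained 1.60-fold below sham on day 14. Mb (myoglobin), saturated in injured muscle on day 14, had a red channel at least 1.91-fold higher. Of 20 genes of atrophy and protein breakdown 3 were higher by both measures: Klf15 (a glucocorticoid-responsive factor, 1.49), Trim63 (the ubiquitin ligase MuRF1, 1.13) and Bnip3 (a mitophagy receptor, 1.11). Fbxo32, the other atrophy ubiquitin ligase atrogin-1, had a ratio difference of -0.06.

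**Figure D3:**
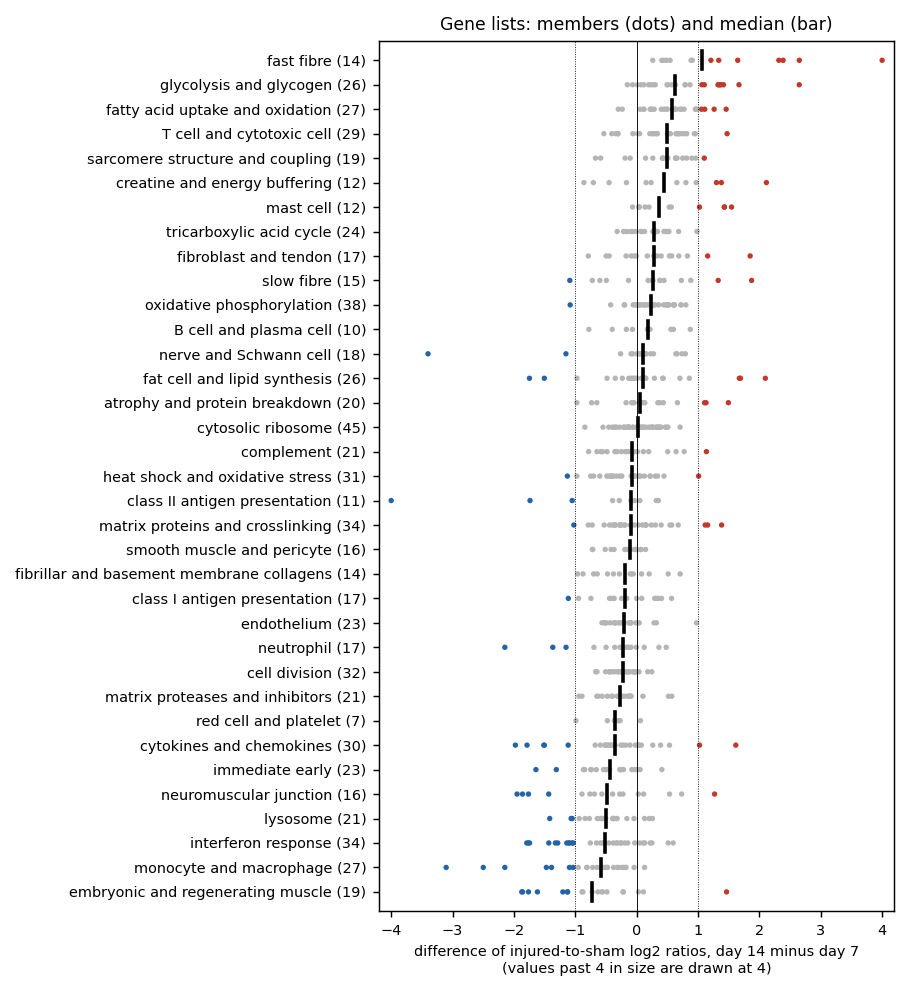
Ratio difference (log2, day 14 minus day 7) of each measured member of 35 gene lists, with the median as a black bar, the number of members in brackets, and members at least 2-fold higher in red and lower in blue by this measure alone. The fast fibre list has the highest median, 1.06, and the list of embryonic and regenerating muscle the lowest, -0.73.

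Some genes known from regenerating and denervated fibres were lower on day 14. The fetal acetylcholine receptor of muscle is built from the alpha, beta, gamma and delta subunits, and the adult one carries epsilon in place of gamma. Chrng (gamma) had injured levels of 10.31 on day 14 and 12.24 on day 7, against sham levels of 9.0 and 9.17, so that it was 2.48-fold above sham on day 14 and 8.41-fold on day 7. Chrnd (delta) read 9.64 on day 14 and 11.73 on day 7 in injured muscle, against 10.43 and 10.67 in sham muscle. Chrna1 (alpha) read 8.92 and 10.58 in injured muscle, against 7.74 and 7.96 in sham muscle. The 3 subunits had ratio differences of -1.76, -1.86 and -1.43. The beta subunit Chrnb1 had -0.69 and the adult subunit Chrne -0.39, both within 2-fold. Gadd45a, a stress gene that is high in denervated muscle, had a ratio difference of -1.95.

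In all, 4 of 16 measured genes of the neuromuscular junction list were lower by both measures and 1 was higher, with a median of -0.48 (-1.31 with the scanner software's log ratios). The gene that was higher was Colq, the collagen tail of synaptic acetylcholinesterase, with a ratio difference of 1.27, and Ache, the esterase itself, had 0.73. Runx1, a factor that is high in denervated muscle, had -0.89. The genes that hold the receptor at the synapse differed little: Rapsn (rapsyn) had -0.28, Musk (the agrin-responsive kinase) 0.03 and Lrp4 (the agrin receptor) 0.11.

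The promoter windows of Chrng and Chrna1 are shown because these subunits were lower together and their upstream regions hold the sequence bound by the muscle regulatory factors, the E-box CAGCTG, which reads the same on both strands. The windows run from 250 bases before to 50 after the transcript start in RefSeq's table for GRCr8, in the direction of transcription, with the E-box in capitals. Chrng lies at chr9:95325734-95326033 on the plus strand and Chrna1 at chr3:78877304-78877603 on the minus strand.
Chrng: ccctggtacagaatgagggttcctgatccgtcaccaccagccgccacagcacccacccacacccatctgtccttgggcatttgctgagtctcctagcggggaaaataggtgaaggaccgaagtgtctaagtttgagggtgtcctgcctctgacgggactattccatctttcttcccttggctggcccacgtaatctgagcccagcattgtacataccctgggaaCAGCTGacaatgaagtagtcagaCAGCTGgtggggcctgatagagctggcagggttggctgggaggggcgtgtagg
Chrna1: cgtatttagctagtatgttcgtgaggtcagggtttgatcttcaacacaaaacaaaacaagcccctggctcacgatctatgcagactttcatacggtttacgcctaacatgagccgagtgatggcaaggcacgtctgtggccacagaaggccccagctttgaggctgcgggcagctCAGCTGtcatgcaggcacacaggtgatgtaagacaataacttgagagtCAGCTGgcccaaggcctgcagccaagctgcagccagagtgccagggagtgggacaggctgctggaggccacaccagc
Each window holds the E-box at 2 places. Of the 16 measured genes of the list 11 had a window, and 6 of these held the motif, against 4134 of 27457 windows over all genes (15.1%). Among the 4 lower genes, all with a window, 3 held it: Chrna1, Chrng and Gadd45a. The window of Chrnd did not, and those of Chrnb1, Chrne and Musk, which were within 2-fold, did. The match therefore does not set the lower genes apart from the list. A match of letters is a description of the window and not of a bound site.

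The list of embryonic and regenerating muscle had the lowest median of all lists, -0.73, with 5 of 19 measured members lower by both measures and 1 higher. On day 14, 5 members were at least 2-fold above sham, and 10 on day 7, where 3.41% and 3.37% of all genes were. It shares Chrng and Chrnd with the junction list. Mymk (myomaker), the membrane protein that lets myoblasts fuse, had injured levels of 7.78 on day 14 and 10.16 on day 7, against sham levels of 6.96 and 7.46, and was 1.78-fold above sham on day 14 and 6.50-fold on day 7. Igf2, a fetal growth factor made by regenerating fibres, had a ratio difference of -1.62 and was still 7.99-fold above sham on day 14. Cdkn1c, a cell-cycle inhibitor induced as myoblasts differentiate, had -1.13. Dlk1, an imprinted gene of fetal and regenerating muscle, was the member that was higher, with 1.47.

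Myh3, the embryonic myosin heavy chain, read 14.59 in injured muscle on day 14 and was saturated on day 7, against sham levels of 10.24 and 10.57. Its red channel was at least 2.07-fold lower on day 14, and its log2 ratio to sham was still 4.35. Sln (sarcolipin, an inhibitor of the calcium pump) had log2 ratios of 1.84 on day 14 and 2.40 on day 7. The regulatory factors differed between the measures. Myog (myogenin) had a ratio difference of -1.20 and an injured difference of -0.96. Myod1 had a ratio difference of -0.89 but an injured difference of 1.25, since its sham level was 10.86 on the day 14 array and 8.72 on the day 7 array.

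Cell division genes did not differ by the size set here. Of 32 measured members none was 2-fold higher or lower by the ratio difference, against 1.83% and 1.25% of all genes, so this count is near the share over all genes. Below 0 were 29 members, and the median ratio difference was -0.23. The median log2 ratio to sham was -0.60 on day 14, -0.39 on day 7 and 1.16 on day 3. Mki67, the proliferation marker, had log2 ratios of -0.55 on day 14 and -0.49 on day 7.

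Interferon-response genes gave the highest number of lower members among the 35 lists. Of 34 measured members 11 were lower by both measures and none was higher, with a median ratio difference of -0.51. Cxcl10, a chemokine that draws T cells, had injured levels of 11.40 on day 14 and 13.37 on day 7, against sham levels of 8.28 and 8.49. It remained 8.67-fold above sham on day 14, against 29.4-fold on day 7. Ifit1 and Ifit2, which bind viral RNA or restrain its translation, had ratio differences of -1.79 and -1.74, and their dimmer probes gave -0.40 and -0.85. Rsad2 (viperin) had -1.43, Mx1 (an antiviral GTPase) -1.32, Oasl2 -1.29 and Isg15 (a ubiquitin-like modifier) -1.14. Oas1a, Mx2, Usp18 and Parp14 lay between -1.1 and -1.03.

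The interferon genes nevertheless stayed above sham as a group. Their median log2 ratio to sham was 1.5 on day 14 and 1.91 on day 7, and 22 members on day 14 and 26 on day 7 were at least 2-fold above sham, against 3.41% and 3.37% of all genes. Irf7, the factor that amplifies the response, had log2 ratios of 2.60 on day 14 and 3.11 on day 7. On day 3 the median had been -0.31.

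The promoter windows of Cxcl10 and Rsad2 are shown because interferon genes were lower together and are known for the interferon-stimulated response element, whose core was searched on both strands as GAAA, any 2 bases, and GAAA again. The core and its reverse complement are in capitals. The windows come from the same RefSeq table and build, chr14:15988816-15989115 on the plus strand for Cxcl10 and chr6:48788071-48788370 on the minus strand for Rsad2.
Cxcl10: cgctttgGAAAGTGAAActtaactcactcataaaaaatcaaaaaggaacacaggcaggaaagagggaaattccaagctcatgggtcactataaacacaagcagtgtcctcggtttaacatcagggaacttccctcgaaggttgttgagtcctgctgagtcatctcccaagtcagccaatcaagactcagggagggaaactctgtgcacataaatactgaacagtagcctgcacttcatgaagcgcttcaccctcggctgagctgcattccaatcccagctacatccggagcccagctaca
Rsad2: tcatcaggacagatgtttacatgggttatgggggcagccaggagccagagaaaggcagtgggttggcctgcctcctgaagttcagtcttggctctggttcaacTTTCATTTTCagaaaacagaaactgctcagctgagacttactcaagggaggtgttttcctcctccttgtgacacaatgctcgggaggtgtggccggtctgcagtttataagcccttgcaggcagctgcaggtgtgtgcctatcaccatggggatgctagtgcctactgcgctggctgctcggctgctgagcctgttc
Of the 34 measured interferon genes 23 had a window, and 16 of these held the core (69.6%), against 1034 of 27457 windows over all genes (3.77%). Of the 11 lower genes 6 had a window, and 5 held it: Oas1a, Oasl2, Rsad2, Cxcl10 and Parp14. The match does not set the lower genes apart from the list, most of whose windows hold it.

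Genes of antigen presentation gave a mixed picture. RT1-Bb, the beta chain of a class II molecule, had the lowest ratio difference of any named gene, -5.69, at chr20:4730533-4730583 in rn4 coordinates. Its injured level was 6.92 on day 14 and 12.27 on day 7, against sham levels of 10.15 and 9.81. A dimmer probe of the same gene gave 1.58 and the median over the probes was -2.05, so the probes disagree in direction, and genes of this complex are near copies of each other. RT1-Ba, the matching alpha chain, was not well above background in injured muscle on day 14 and was at least 3.73-fold lower there. Over the 11 measured class II members, both chains included, the median was -0.09. The class I genes RT1-CE3 and RT1-CE16, which the class I list does not hold, had ratio differences of -2.71 and -2.24. RT1-A2 had -1.11 with a dimmer probe at 0.77, and the median over 17 class I members was -0.20.

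Some macrophage genes were lower on day 14. Of 27 measured members 4 were lower by both measures and none was higher, the median ratio difference was -0.59, and 26 members had a value below 0. Trem2, a lipid-sensing receptor of phagocytes, had injured levels of 9.87 on day 14 and 12.58 on day 7, against sham levels of 11.62 and 11.83. Itgam (the integrin CD11b) had a ratio difference of -2.15 (-3.55 with the software's processed signals) and Gpnmb, a glycoprotein of lipid-laden macrophages, -1.39. Spp1 (osteopontin) had injured levels of 11.19 on day 14 and 13.41 on day 7, but sham levels of 15.60 and 14.72, so it stood 21.3-fold below sham on day 14 and 2.48-fold below it on day 7. For part of the list the sham muscle had the higher signal. On day 14, 10 of the 27 members were at least 2-fold below sham, and 5 on day 7, against 1.67% and 1.32% of all genes.

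Among phagocytosis genes C1qa, a complement subunit made by macrophages, kept a log2 ratio to sham of 2.91 on day 14 and 3.55 on day 7. Cd68, an endosomal marker, had a ratio difference of -1.04 and an injured difference of -0.94. Cd163, a marker of resident and repair macrophages, was below sham on both days, with log2 ratios of -2.50 on day 14 and -1.95 on day 7. Of 21 lysosome genes 1 was lower by both measures, Ctsd (cathepsin D, -1.42), and the median was -0.50. Apoc1, an apolipoprotein also made by macrophages, had a ratio difference of -2.63.

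Several chemokines that attract monocytes were lower too. Ccl2, the main monocyte attractant, had injured levels of 10.92 on day 14 and 12.76 on day 7, against sham levels of 13.47 and 13.81. Its close relatives Ccl12 and Ccl7 had ratio differences of -1.98 and -1.79, and Cxcl2 and Ccl4 had -1.5 and -1.12. These 5 were the members of 30 cytokine and chemokine genes lower by both measures. The 2 higher members were Ccl19, which guides T cells and dendritic cells, at 1.62 and Ccl11 (eotaxin) at 1.02. Of 17 neutrophil genes 3 were lower, Itgam among them, with S100a9 at -1.37 and S100a8 at -1.15, and both calprotectin subunits were below sham on both days. Il1rl1, the receptor for interleukin-33, had a ratio difference of -2.88 and was 5.52-fold below sham on day 14.

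T cell genes leaned the other way by less than 2-fold. Of 29 measured members 1 was higher by both measures and none was lower, the median was 0.50, and 23 members were above 0. The member that passed, Cd7, had sham signal not well above background on day 7, and its dimmer probe gave 0.53. Ccl5, a chemokine of cytotoxic cells, had injured levels of 10.97 on day 14 and 10.07 on day 7, and Cd3g (a chain of the T cell receptor complex) had 11.27 and 10.99. Cd3g stood 3.44 above sham on the log2 scale on day 14 and 2.89 above on day 7. Cd8a was below sham on both days, with log2 ratios of -1.88 on day 14 and -1.57 on day 7. Cxcl13, a B cell attractant, had log2 ratios of 4.01 on day 14 and 4.41 on day 7. Some mast cell genes were higher: 4 of 12 measured members passed, namely Hpgds (a prostaglandin D synthase, 1.55, sham not well above background on either day), Cma1 and Mcpt1 (chymases, 1.43 each) and Cpa3 (a carboxypeptidase, 1.02). With the software's processed signals Hpgds had 5.08 and Mcpt1 3.69. The defining markers Kit and Tpsb2 had ratio differences of 0.04 and 0.14 but injured differences of -0.67 and -0.52. The list's median was 0.37 for the ratio difference (1.00 with the scanner software's log ratios) and 0.03 for the injured difference.

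**Figure D4:**
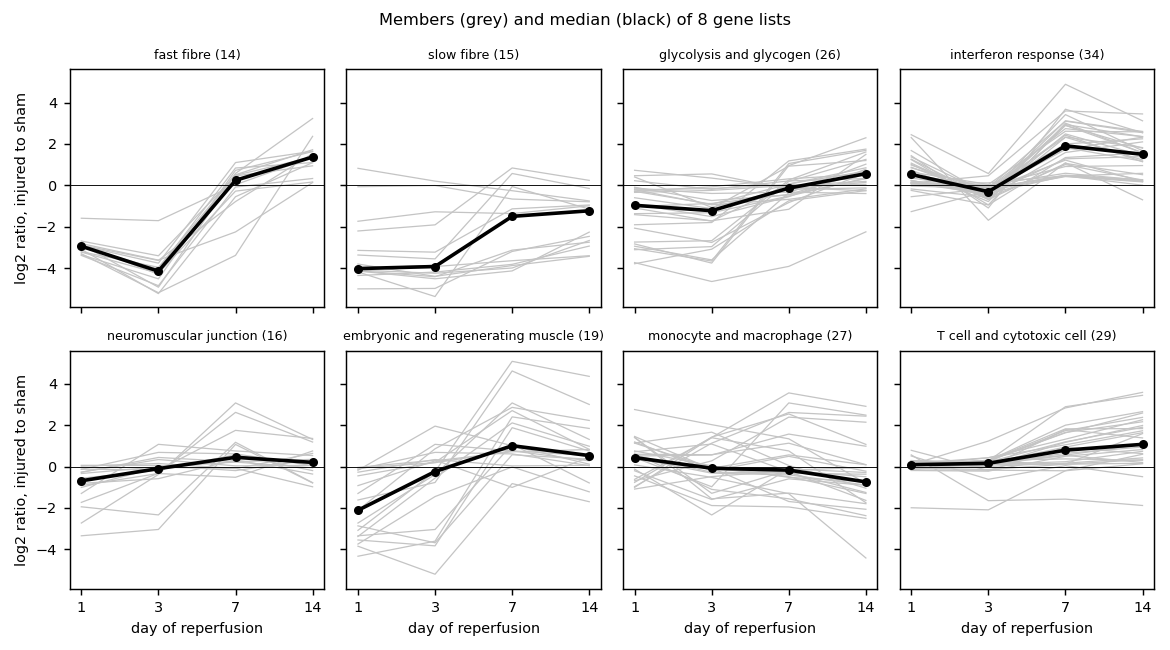
Log2 ratio of injured to sham muscle on days 1, 3, 7 and 14 for the members (grey) and the median (black) of 8 gene lists, with the number of members in brackets. The fast fibre median is 0.24 on day 7, with some members still below sham, and 1.37 on day 14. Slow fibre genes have a median of -4.02 on day 1 and -1.23 on day 14, and interferon genes peak at a median of 1.91 on day 7.

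Collagen and matrix genes stood above sham on both days with little difference between them. Of 14 measured collagens none passed both measures, and the median ratio difference was -0.19. At least 2-fold above sham were 10 members on day 14 and 11 on day 7, against 3.41% and 3.37% of all genes. Col1a1 and Col3a1, the main collagens of scar tissue, were saturated in injured muscle on both days, so no fold between the days is given. Col16a1 and Col18a1 had ratio differences of -0.96 and -0.87. Postn (periostin), a matrix protein of healing tissue, had log2 ratios of 3.24 on day 14 and 2.57 on day 7. Of 34 other matrix genes 2 were higher by both measures, Ogn (osteoglycin, 1.38) and Thbs4 (thrombospondin 4, 1.16), and of 17 fibroblast and tendon genes Gsn (gelsolin, 1.85) and Thbs4 were. Of 21 matrix proteases and inhibitors none passed, with a median of -0.27.

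Fat and nerve genes held some of the widest single differences. Adipoq (adiponectin) had injured levels of 9.21 on day 14 and 6.87 on day 7, a 5.06-fold higher red channel, with sham muscle not well above background on day 7. Retn (resistin) and Ces1d (a carboxylesterase of fat) had injured differences of 1.72 and 2.40 under the same limit. The fat cell markers Plin1 and Cidec had ratio differences of 0.12 and 0.08, and Fabp4 had -0.97. Scd, a desaturase of lipid synthesis, was lower on day 14 by 1.5 and still 10.4-fold above sham, and Angptl4, a lipase inhibitor, had -1.75. Gdnf, a growth factor for motor neurons that muscle makes, had injured levels of 9.0 on day 14 and 12.32 on day 7, against sham levels of 9.62 and 9.54. It stood 1.53-fold below sham on day 14 and 6.88-fold above it on day 7. Of 18 nerve and Schwann cell genes Gdnf and Gal (the neuropeptide galanin, -1.15) were the members lower by both measures.

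Other genes at the low end were Rab15, a trafficking GTPase, with a ratio difference of -3.57 and injured levels of 11.88 on day 14 and 15.24 on day 7, Myl6b, a myosin light chain, with -2.58, and Fbxl22, a muscle F-box protein, with -2.39. Rab15 and Fbxl22 were 7.62-fold and 11.4-fold above sham on day 7. Hmox1, the heme-degrading enzyme of stressed tissue and macrophages, had a ratio difference of -1.13. Lists without a member past both measures in either direction included endothelium (23 members, median -0.21), smooth muscle and pericyte (16, -0.12) and the cytosolic ribosome (45, 0.02).

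Where the changed genes stood on the earlier days was taken from the day 1 and day 3 arrays. Their values were not compared in choosing the genes, but both arrays entered the normalization of the injured levels and the choice of each gene's probe. Of the 288 genes higher on day 14, 37.2% were at least 2-fold below sham on day 1 and 37.5% on day 3, against 5.12% and 4.36% of all genes. Of the 215 genes lower on day 14, 10.7% were at least 2-fold above sham on day 1 and 25.6% on day 3, against 1.28% and 2.72% of all genes. On day 14 itself 122 of the 288 higher genes were above sham, against 3.41% of all genes, and 132 of the 215 lower genes had been above it on day 7, against 3.37%. The choice of the genes bears on those last 2 counts. Between days 7 and 14 the higher genes took several routes. Of the 288, 55 were below sham on day 7 and within 2-fold of it on day 14, and 104 were within 2-fold on day 7 and above it on day 14. Another 107 stayed within 2-fold of sham on both days. Of the 215 lower genes 103 were above sham on day 7 and within 2-fold of it on day 14, 27 were above on both days, and 33 were within 2-fold on day 7 and below sham on day 14.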

How the data were processed

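Feature Extraction wrote 1 deposited file per array, and the series adds a table of values. The deposited intensity values are mean spot and median local background brightness, not normalized. The deposited log10 ratios are red over green after background subtraction and dye normalization by the software, per the file headers. The deposited value table holds log2 ratios of injured to sham muscle. Over 40972 single-spot probes these differed from the rescaled log10 ratios by at most 0.005, with a median of 0 on each array, which settled their scale, centring and direction. The file headers give Feature Extraction 10.5.1.1, and the submitters' processing notes give 9.5.3.

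With limma 3.58.1 in R 4.3.3, intensities were corrected by normexp (offset 50), ratios were normalized by loess within arrays, and single-channel levels by quantiles of the mean brightness over the 4 arrays. Control and outlier spots had no weight in loess. Spots of a probe were averaged, and the probe brightest over all channels stood for its gene. A fold against a channel that was saturated or not well above background is a bound, with a dim signal raised to the lowest one well above background. The steps were tested on simulated data made from the day 7 signals, with spot noise added and known changes in the injured channel only. That test does not cover differences between sham samples or between animals.

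Names came from RefSeq's GRCr8 gene table, used for names only. Accessions matched 11150 probes, names without the suffix for predicted genes 6494, current symbols 1599, older symbols 445 and symbols in the description 132, and 21192 kept the file's name. Among 2339 genes with more than 1 probe kept, 2 had probes at least 2-fold apart from 0 in opposite directions.

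The genes named were the 12 highest and 12 lowest by ratio difference among those past both measures and measured in injured muscle on both days, the 5 largest bounds each way, from each list the 3 genes lying farthest out on the side of the list's median, and a fixed set that includes Myh4, Chrng, Cxcl10 and Cd68. One of these is not reported here. List members past both measures were named as well after their values were seen. The comparison, the 35 lists and the fixed set were chosen with earlier results of these data known. With 1 array per day no test across genes was made.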

Additional observations from a re-analysis of the deposited data

Results flagged for a closer look

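In 4 named genes the injured muscle lay on opposite sides of sham on days 14 and 7, by 2-fold or more on each day. Pvalb had a log2 ratio to sham of 2.37 on day 14 and -3.38 on day 7, a difference of 5.75. Mlf1 had 1.14 on day 14 and -2.14 on day 7, a difference of 3.28. Fbp2 had 1.5 on day 14 and -1.15 on day 7, a difference of 2.65. RT1-Bb went the other way, with -3.23 on day 14 and 2.46 on day 7, a difference of -5.69. Each rests on 1 array per day, and the differences were not tested. The sham levels differed less between the arrays, by -0.82 for Pvalb, -0.27 for Mlf1, 0.46 for Fbp2 and 0.34 for RT1-Bb (day 14 minus day 7). A dimmer probe of RT1-Bb gave a ratio difference of 1.58.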

How the results depend on the processing

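The counts of genes at least 2-fold apart depend on the processing. With the scanner software's log ratios, 2246 genes were higher and 2130 lower on day 14 by the ratio difference, and 469 and 356 by both measures. The deposited value table, which holds the same ratios, gave 2256 and 2141 by the ratio difference and 468 and 355 by both measures. With the software's processed signals, the counts were 2215 and 2217 by the ratio difference, 941 and 938 by both measures, and 2356 and 2594 by the injured channels. Without the offset in normexp they were 852 and 704, 568 and 391, and 1802 and 1200. At a 1.5-fold size they were 1216 and 1056, 905 and 821, and 2352 and 2407, and at a 4-fold size 34 and 35, 25 and 28, and 198 and 53. With the mean of the 4 sham channels as reference the ratio difference equals the injured difference by construction, so both it and the count by both measures became 1053 and 541. The other settings kept every count within 1.5 times: no loess, red channels scaled alone, the filters, saturated spots, and the choice of probes. The cause of these shifts was not tested.

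The median ratio difference of the neuromuscular junction list, -0.48 as reported, was -1.31 with the software's log ratios, -1.33 with the processed signals and -1.31 with the value table. That of the neutrophil list, -0.22 in the main processing, was -0.93, -0.96 and -0.93, and that of the mast cell list, 0.37 as reported, was 1.00, 0.97 and 1.00. The B cell list, with a median of 0.18 over 10 genes, gave -0.40 when both channels had to be well above background, from 3 genes. The other 340 list medians under an alternative moved by less than 0.5. The fast fibre median stayed between 0.97 and 1.34, the interferon median between -0.86 and -0.48, and the macrophage median between -0.79 and -0.57. Of the named genes at least 2-fold apart, RT1-A2 changed sign to 0.0699 with the software's log ratios, 0.0475 with the processed signals and 0.0700 with the value table, and Ttn to -0.14 as the median over its probes. Another 62 single-gene values moved by 2-fold or more and 1404 did not. Among them, RT1-Bb had -2.05 as the median over its probes. With the processed signals RT1-Bb had -7.05, RT1-Ba -6.43, Il1rl1 -4.03, Mrpl43 -3.79, Itgam -3.55, Fabp3 2.52, Ces1d 3.36, Mcpt1 3.69 and Hpgds 5.08. With the mean sham reference Apobec2 had 1.22, Cd7 2.56 and Myod1 1.25. The median over all genes was -0.11 by the ratio difference with the processed signals and -0.19 by the injured difference.

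No paired analysis was possible because each day has 1 array. The main limits are the single array per day, the scanning session that sets day 14 apart, dim sham signal on day 7, and saturation, which hides differences of the most abundant collagens and contractile genes.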

Other observations

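In injured muscle 2 genes at the low end of the comparison, RT1-Bb and Mrpl43, had levels within 2-fold of each other on days 14 and 1 and higher levels on days 3 and 7, while the sham muscle varied less. RT1-Bb had log2 levels of 7.04, 10.72, 12.27 and 6.92 in injured muscle on days 1, 3, 7 and 14, against 10.25, 10.38, 9.81 and 10.15 in sham muscle. Mrpl43, a protein of the mitochondrial ribosome, had 6.58, 8.65, 9.04 and 6.66 in injured muscle, against 8.54, 8.26, 8.49 and 8.64 in sham muscle. These genes were picked after their values were seen. Each injured muscle was a different time point of an outbred stock with 1 array each, so time and animal cannot be told apart, and no cause was tested.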
